A study of Mus musculus with 8 samples.

Results

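The receptor tyrosine kinases examined here are members of the family other than MET and the ERBB receptors. They were listed as candidates for carrying signaling past an inhibited receptor, which was not measured here. Their 43 gene symbols were listed by receptor class (PDGF, FGF, VEGF, insulin, TAM, EPH, Wnt-binding, collagen-binding, neurotrophin, ALK, GDNF and angiopoietin receptors, with *Mst1r* and *Ros1*) and matched to the deposited gene table by symbol. The matching used no expression value, but the list was drawn up with earlier results of these data known. All 43 were found among the 50600 genes of the table. Of these, 27 reached 10 counts in 2 or more libraries of the 8 and were tested, and 16 did not.

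Receptor tyrosine kinases span the plasma membrane, bind a ligand outside the cell and phosphorylate tyrosines inside it, where adaptors such as GRB2, GAB1 and FRS2 couple them to the RAS/ERK and PI3K/AKT cascades. Because many receptors feed the same cascades, a cell that depends on 1 of them can keep signaling through another when the first is blocked, which is known as bypass signaling. Malignant peripheral nerve sheath tumors (MPNSTs) are sarcomas of the nerve sheath. Those related to neurofibromatosis type 1, modeled here, arise after loss of *Nf1*, a negative regulator of RAS. Receptor input into RAS is thus poorly restrained in these cells.

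Poly(A) RNA was sequenced from cultured murine MPNST cells of 2 lines. NF1-MET was isolated from a tumor of a mouse with an Nf1 fl/ko genotype, a lox-stop-loxMET tg/+ allele and an inducible Cre transgene driven by a promoter of the Schwann cell lineage, and has lost *Cdkn2a*. NF1-MET;sgP53 was made from it by lentiviral CRISPR-Cas9 targeting of *Trp53* with puromycin selection, and is labelled *Trp53* KO where NF1-MET is labelled WT. Each line received 100 nM capmatinib, a MET kinase inhibitor, or DMSO vehicle for 24 h, all in the same medium with serum. There were 2 replicates in each of the 4 groups. Each genotype is represented by a single line, so the knockout and the history of its line cannot be told apart. The NF1-MET libraries are described by names that start with SEV, and the methods of the paper name an NF1-MET;sgEmptyVector line. The labels do not spell out whether these libraries came from cells carrying that empty vector. The labels do not say that the replicates came from separate cultures on separate days, so the p-values measure the spread between these libraries, which may be technical.

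The libraries held 30116810 to 42781371 counts, of which 1.11% to 13.1% fell on *Gm42418*, a locus known to collect ribosomal RNA reads. The targeted gene, *Trp53*, had a log2 fold change of -0.94 in NF1-MET;sgP53 over NF1-MET vehicle libraries, with no overlap. That is a check of the labels on transcript level only, since an edited allele can still be transcribed. Of the 9 Schwann cell markers, 2 reached a mean of 1 CPM in each group, *Pmp22* among them, and *Sox10* was at most 0.176 CPM. The 9 summed to 25.4 to 31.3 CPM in vehicle and to 106 to 122 CPM with capmatinib, most of it *Pmp22*. *S100b* was at most 0.492 CPM. Endothelial markers summed to 1.25 to 2.92 CPM, with *Emcn* and *Cldn5* at 0 in every library. Blood cell markers summed to 0.867 to 1.93 CPM, with *Adgre1*, *Itgam* and *Tyrobp* at 0, and epithelial markers summed to at most 0.727 CPM. The fibroblast and pericyte list, which holds *Col1a1* and *Col1a2*, summed to 7286 to 8576 CPM in vehicle and to 30097 to 31078 CPM with capmatinib. In bulk RNA, a change in the fraction of cells that express a gene and a change in the RNA per cell cannot be told apart.

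Levels in CPM, the usual unit for counts relative to the total of a library, were computed after scaling by the trimmed mean of M-values (TMM), and changes are log2 fold changes with a standard error (SE) from the edgeR quasi-likelihood test. A gene was called higher or lower at a Benjamini-Hochberg adjusted p under 0.05 over all genes tested. Changes are thus relative to the bulk of expressed genes.

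The untested receptors were close to silent. *Kit*, *Tie1*, *Ros1* and *Ntrk2* had 0 counts in all 8 libraries, which allows at most 3 counts, or 0.0702 to 0.108 CPM by library. *Kdr*, *Flt3*, *Flt4*, *Ntrk3*, *Epha5*, *Ephb1* and *Ltk* never passed 2 counts in a library. *Tek*, *Ret*, *Mst1r*, *Fgfr4* and *Alk* reached 3 to 9 counts in their highest library. The untested set therefore held the receptors for neurotrophins, GDNF, angiopoietins and the ALK ligands, together with *Kdr*, the main signaling receptor for VEGF-A, and *Mst1r*, the closest relative of *Met*. Whether any of these changed with treatment was not detectable at this depth.

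Among the tested receptors, levels per kb of exon differed widely and *Axl* stood first. In NF1-MET vehicle cells *Axl*, a TAM receptor for GAS6, was at 361 ± 4.22 CPM per kb (SD, n = 2), followed by the collagen receptor *Ddr2* at 57.4 ± 0.125, *Epha2* at 50.0 ± 0.955, the Wnt-binding pseudokinase *Ryk* at 42.1 ± 0.323, *Pdgfra* at 41.7 ± 0.129 and *Pdgfrb* at 33.1 ± 0.718. *Ryk* and *Pdgfra* were within about 1 SD of each other. *Axl* alone made up 51.5% to 52.4% of the summed level of the 43 genes per kb in the 4 vehicle libraries. For comparison, *Met* was at 44.6 to 47.2 CPM per kb in those libraries, below *Ddr2* and far below *Axl*. These are counts of the mouse *Met* gene on mm10. Whether they include transcript of the MET transgene was not tested, so total MET transcript may be higher. At the other end, *Csf1r*, *Epha1*, *Epha4* and *Fgfr3* were under 0.1 CPM per kb in vehicle cells.

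Capmatinib changed this order. The *Axl* share fell to 37.3% to 38.3% in the 4 capmatinib libraries, and *Pdgfrb* moved from sixth to the second place in both lines, at 81.6 ± 0.618 CPM per kb (NF1-MET) and 86.1 ± 0.612 (NF1-MET;sgP53). The summed level of all 43 genes was 695 to 724 CPM per kb in vehicle and 664 to 679 with capmatinib, whereas without *Axl* it was 337 to 347 in vehicle and 415 to 424 with capmatinib. In the plot of levels per length, the capmatinib points of *Pdgfrb*, *Igf1r*, *Ephb2* and *Ephb3* lie to the right of the vehicle points and those of *Axl*, *Mertk*, *Flt1* and *Epha2* to the left. *Fgfr1* (20.6 ± 0.258 CPM per kb) and *Igf1r* (20.0 ± 0.120) were neighbors in NF1-MET;sgP53 capmatinib cells.

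**Figure D1:**
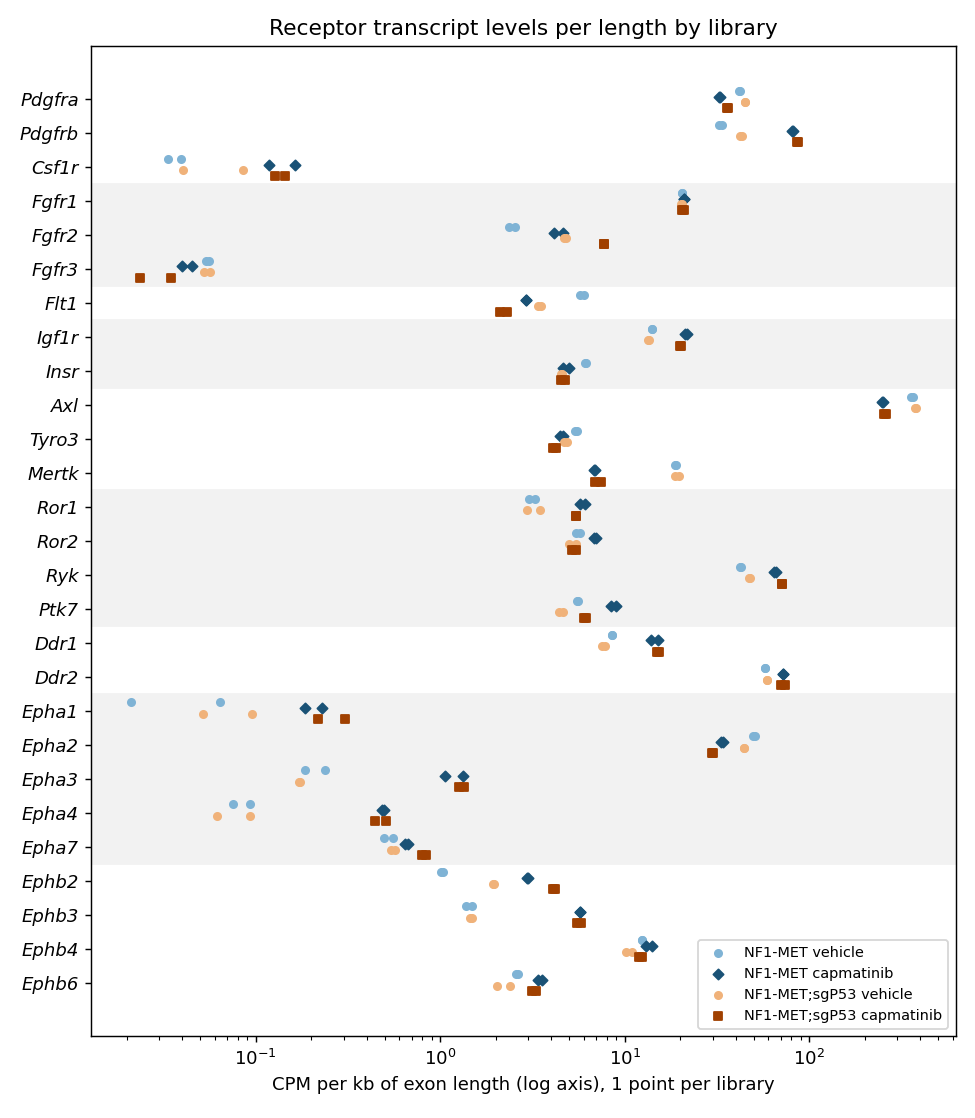
Level of each of the 27 tested receptor genes in CPM per kb of exon length on a log axis, with 1 point per library, 2 libraries per group and shading that separates receptor classes. *Axl* is the highest in all 4 groups, and *Pdgfrb* passes *Pdgfra* in the capmatinib libraries (ratio 2.39 to 2.53 against 0.780 to 0.969 in vehicle).

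Exposure to capmatinib was the first comparison, which asks which other receptors change when MET is inhibited. In NF1-MET cells 18 of the 27 tested receptors were called higher, against 35.5% of all genes tested, and 7 were called lower, against 34.7%. In NF1-MET;sgP53 cells 17 were called higher and 6 lower, against 34.2% and 33.4% of all genes. The libraries of the treatments did not overlap for 27 of the 27 in the first line and for 25 in the second, against 83.5% and 82.5% of all genes. The 27 receptors had a median log2 fold change of 0.40 (NF1-MET) and 0.56 (NF1-MET;sgP53), while over all genes it was 0.0020 and 0.0049. Changes of at least 2-fold were rarer, with 7 higher in each line, against 11.5% and 10.4% of all genes, and with 2 lower in the parental and 1 in the knockout line, against 5.35% and 5.02%.

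The directions in the lines, which share no library, can be set side by side. Called higher in both were 17 receptors, which is 94.4% of the NF1-MET list and 100.0% of the NF1-MET;sgP53 list, against 85.9% and 88.9% for the genes called higher in both over the whole table (30.4% of all genes). They were *Pdgfrb*, *Csf1r*, *Fgfr2*, *Igf1r*, *Ror1*, *Ryk*, *Ptk7*, *Ddr1*, *Ddr2* and 8 EPH receptors. Called lower in both were 6 (85.7% and 100.0% of the lists, against 85.7% and 89.0% over the whole table, or 29.7% of all genes), namely *Axl*, *Mertk*, *Tyro3*, *Pdgfra*, *Flt1* and *Epha2*. *Ror2* was called higher and *Insr* lower in NF1-MET alone, and *Fgfr1* and *Fgfr3* were called in neither. By class, all 3 TAM receptors fell, all 4 tested EPHB receptors rose, and 4 of 5 tested EPHA receptors rose in each line. Of all genes, 35.5% and 34.2% were called higher in the lines and 34.7% and 33.4% lower. Fitted over both lines with line as a covariate, 18 were called higher and 7 lower, against 38.0% and 35.8% of all genes.

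**Figure D2:**
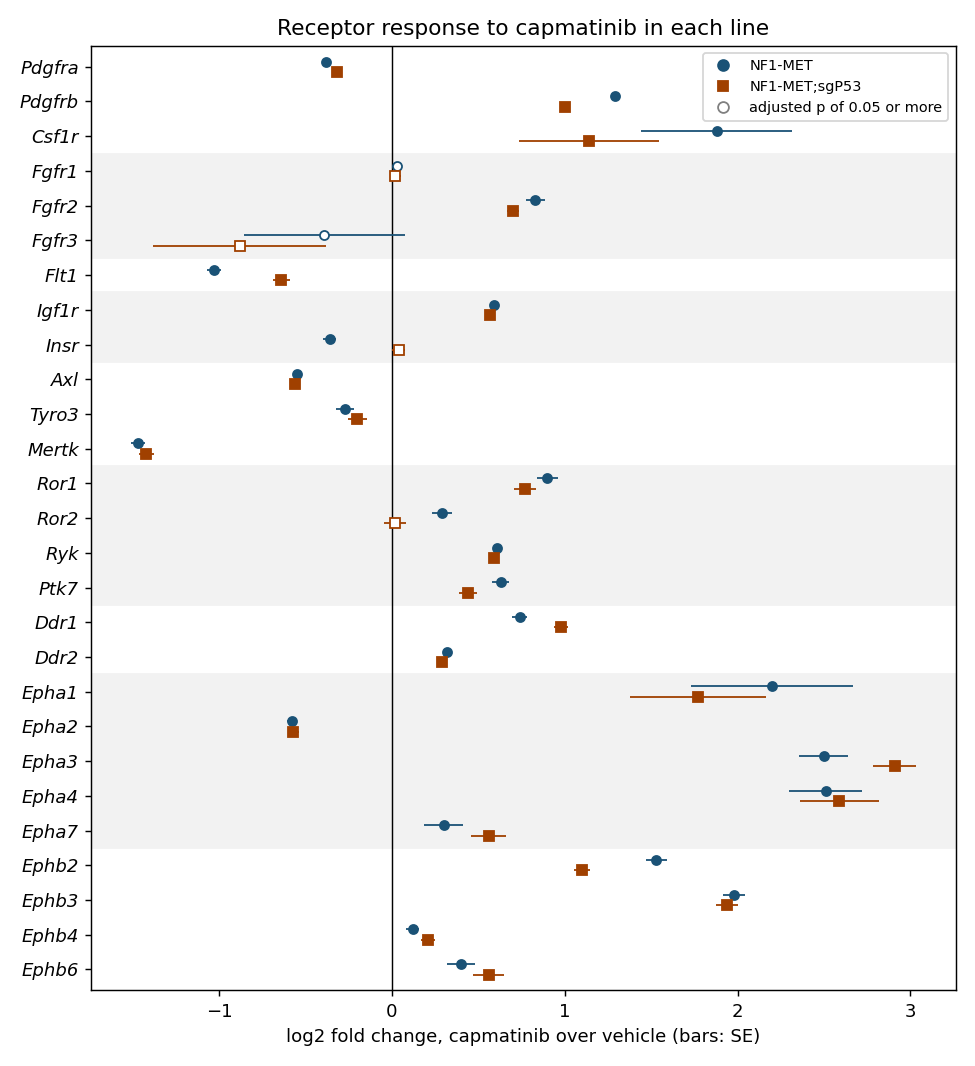
log2 fold change of capmatinib over vehicle for the 27 tested receptors in each line, with the SE as bars and open symbols where the adjusted p was 0.05 or more. The symbols of the lines lie close together for most receptors, from *Mertk* at -1.47 and -1.42 to *Epha3* at 2.50 and 2.91.

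The TAM receptors *Axl*, *Mertk* and *Tyro3* bind GAS6 and protein S and are known for clearing apoptotic cells and for drug tolerance in tumors. *Mertk* (chr2:128698956-128802894, plus strand, mm10) was at 81.2 and 82.2 CPM in NF1-MET vehicle libraries and at 29.5 and 30.1 with capmatinib, and at 85.2 and 80.8 in NF1-MET;sgP53 vehicle libraries and 29.8 and 32.2 with capmatinib. Every capmatinib library was below every vehicle library, and the lines overlapped at either treatment. It fell by 1.47 (SE 0.0406, adjusted p = 5.66e-25) in NF1-MET and by 1.42 (SE 0.0428, adjusted p = 7.30e-18) in NF1-MET;sgP53, the largest decrease of any tested receptor in each line.

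*Axl* (chr7:25757273-25788705, minus strand) was at 1799 and 1829.5 CPM in NF1-MET vehicle, 1256 and 1246 when treated, and in NF1-MET;sgP53 at 1883 and 1909 with vehicle and 1270.2 and 1307 with the drug. The treatments did not overlap, and the changes of the lines were alike in size. *Axl* fell by 0.55 (SE 0.0177, adjusted p = 3.24e-23) and by 0.56 (SE 0.0212, adjusted p = 4.79e-16). *Tyro3*, at 33.2 to 34.0 CPM in NF1-MET vehicle and 27.6 to 28.6 with capmatinib, fell by 0.27 in the parental line and by 0.20 in the knockout line. Of their ligands, *Gas6* had at most 6 counts in any library, while *Pros1*, which encodes protein S, rose by 1.04 and 0.82.

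The start-site regions of *Axl* and *Mertk* are shown because these receptors fell together in both lines. Regions from 250 bases before to 50 bases after the RefSeq start site (GRCm38.p6, the build named mm10) were searched on both strands for the forkhead motif GTAAACA, the AP-1 motif TGANTCA, the TEAD motif GGAATG, the CArG box of serum response factor and the p53 half-site. Capitals mark the matches, which in *Axl* are a GGAATG from position -233 and a reverse-strand GTAAACA overlapping it from position -229, both relative to the start site, and in *Mertk* a p53 half-site from position -178.
Axl (chr7:25788684-25788983, minus strand): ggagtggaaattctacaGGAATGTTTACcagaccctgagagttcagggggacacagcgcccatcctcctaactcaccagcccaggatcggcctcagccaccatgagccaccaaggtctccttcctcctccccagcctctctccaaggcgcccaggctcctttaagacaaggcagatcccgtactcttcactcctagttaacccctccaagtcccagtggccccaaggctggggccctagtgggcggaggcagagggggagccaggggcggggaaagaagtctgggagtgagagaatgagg
Mertk (chr2:128698665-128698964, plus strand): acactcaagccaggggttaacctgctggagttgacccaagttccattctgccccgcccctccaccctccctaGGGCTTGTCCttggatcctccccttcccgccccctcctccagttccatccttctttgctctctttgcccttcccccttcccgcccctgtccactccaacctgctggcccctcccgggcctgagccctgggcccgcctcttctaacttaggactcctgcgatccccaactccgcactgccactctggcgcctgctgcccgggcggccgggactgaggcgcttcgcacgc

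A region was held for 23 of the 27 tested receptors. GTAAACA was found in 1 of them (*Axl*), against 4.05% of 27025 genes, TGANTCA in 2 (*Ddr1* and *Ror2*), against 8.97%, the p53 half-site in 1 (*Mertk*), against 9.55%, and the CArG box in 0, against 1.81%. GGAATG was found in 5 (*Axl*, *Epha1*, *Epha2*, *Epha3* and *Ptk7*), or 21.7%, against 16.6% of all genes. These are matches of letters and do not show binding, and the receptors that share GGAATG moved in both directions, as the next regions show.

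EPH receptors are the largest class of receptor tyrosine kinases, bind membrane-bound ephrins on neighboring cells and are known for cell repulsion and boundary formation. *Epha2*, by far the most abundant of them, fell with capmatinib while the other tested members rose. *Epha2* (chr4:141301240-141329384, plus strand) was at 231 and 237 CPM in NF1-MET vehicle, 156 and 159.8 with capmatinib, 207 in both NF1-MET;sgP53 vehicle libraries and 138 and 139.5 with capmatinib. All 4 groups were apart from each other. It fell by 0.58 (SE 0.0266, adjusted p = 4.53e-19) and by 0.57 (SE 0.0311, adjusted p = 2.45e-13) with the drug. As a share of the summed EPH level per kb, *Epha2* went from 71.7% to 73.4% in vehicle libraries to 51.4% to 54.6% with capmatinib.

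*Epha3* (chr16:63543534-63864175, minus strand) was at 1.60 and 2.06 CPM in NF1-MET vehicle, 9.22 and 11.6 under the inhibitor, whereas the NF1-MET;sgP53 libraries held 1.51 and 1.50 CPM with vehicle and 11.7 and 11.0 under the inhibitor. The treated libraries were thus several-fold above all vehicle libraries in each line. *Epha3* rose by 2.50 (SE 0.142, adjusted p = 1.48e-16) and by 2.91 (SE 0.124, adjusted p = 3.29e-15), and the difference between these responses was not called (0.39, SE 0.229, adjusted p = 0.343). *Epha4* (chr1:77367185-77515088, minus strand), which binds ephrins of both classes, was at 0.606 and 0.752 CPM in NF1-MET vehicle, 3.90 and 3.98 after capmatinib, then 0.495 and 0.749 in NF1-MET;sgP53 vehicle and 4.11 and 3.56 after capmatinib. It rose by 2.51 (SE 0.211, adjusted p = 2.73e-12) and 2.59 (SE 0.229, adjusted p = 1.21e-09) from a level that stayed under 1 CPM in vehicle cells.

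The start-site regions of *Epha2* and *Epha3* both hold the TEAD motif, in capitals, although the genes moved in opposite directions. In *Epha2* it is on the reverse strand from positions -243 and -56, and in *Epha3* it starts at position -244.
Epha2 (chr4:141300971-141301270, plus strand): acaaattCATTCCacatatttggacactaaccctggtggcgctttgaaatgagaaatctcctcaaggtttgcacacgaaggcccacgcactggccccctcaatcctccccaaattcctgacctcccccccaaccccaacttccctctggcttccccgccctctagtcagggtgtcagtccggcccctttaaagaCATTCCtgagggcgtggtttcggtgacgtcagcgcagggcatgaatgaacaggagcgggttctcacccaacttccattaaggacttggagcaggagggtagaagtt
Epha3 (chr16:63864126-63864425, minus strand): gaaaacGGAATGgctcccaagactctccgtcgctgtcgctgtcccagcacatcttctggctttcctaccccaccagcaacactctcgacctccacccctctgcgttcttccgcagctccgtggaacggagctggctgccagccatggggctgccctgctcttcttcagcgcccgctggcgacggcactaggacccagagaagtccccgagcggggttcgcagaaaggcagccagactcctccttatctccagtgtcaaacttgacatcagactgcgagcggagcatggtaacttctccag

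Of the EPHB receptors, *Ephb3* (chr16:21204755-21223305, plus strand) was at 9.15 and 9.83 CPM in NF1-MET vehicle, 37.8 and 38.1 when treated, and in NF1-MET;sgP53 at 9.66 and 9.88 with vehicle and 36.5 and 38.5 with the drug. Its levels depended on the drug and overlapped between the lines. *Ephb3* rose by 1.98 (SE 0.0638, adjusted p = 3.74e-23) and 1.94 (SE 0.0634, adjusted p = 3.17e-17), and its share of the summed EPH level per kb went from 2.04% to 2.45% in vehicle to 9.10% to 10.0% with capmatinib. *Ephb2* (chr4:136647539-136835988, minus strand) was at 12.7 and 13.0 CPM in NF1-MET vehicle, 37.3 and 37.8 under the inhibitor, whereas the NF1-MET;sgP53 libraries held 24.5 and 24.2 CPM with vehicle and 51.6 and 52.8 under the inhibitor. Unlike *Ephb3*, it was higher in NF1-MET;sgP53 at both treatments. With capmatinib it rose by 1.53 (SE 0.0593, adjusted p = 5.43e-21) and 1.10 (SE 0.0459, adjusted p = 2.39e-15).

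The remaining EPH receptors changed less or were scarce. *Ephb6*, a kinase-dead member, rose by 0.40 and 0.56, and *Ephb4*, a receptor for ephrin-B2, by 0.12 and 0.21. The *Ephb4* value in NF1-MET was 0.06 and not called without capmatinib replicate 2, and it turned to -0.06 when libraries were scaled by their totals. *Epha7* rose by 0.30 and 0.56, and its NF1-MET value lost its call without vehicle replicate 1 (0.23) or capmatinib replicate 2 (0.28). *Epha1* rose by 2.20 and 1.77 from 3 to 16 counts per vehicle library, and its annotation overlaps *Zyx* on the opposite strand by 236 bp. *Zyx*, an actin-associated gene at 303 to 571 CPM, rose by 0.82 and 0.59, and since the strand setting of the counting was not stated, reads of the pair cannot be told apart. Among the ephrins, *Efnb1* rose by 0.64 and 0.75 and *Efnb2* fell by 0.38 and by 0.28.

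The PDGF receptors, which bind PDGF dimers and are known as receptors of mesenchymal cells and pericytes, moved in opposite directions. *Pdgfrb* was at 178 and 184 CPM in NF1-MET vehicle, 444 and 449 after capmatinib, then 232 and 238 in NF1-MET;sgP53 vehicle and 474 and 469 after capmatinib. The vehicle libraries of the lines did not overlap. *Pdgfrb* rose by 1.29 (SE 0.0244, adjusted p = 1.66e-29) in NF1-MET and by 1.00 (SE 0.0293, adjusted p = 3.97e-18) in NF1-MET;sgP53. *Pdgfra* (chr5:75152292-75198215, plus strand) was at 419 and 417 CPM in NF1-MET vehicle and 327 and 324 with capmatinib, and at 448 and 449 in NF1-MET;sgP53 vehicle and 362 and 356 with capmatinib. It fell by 0.38 (SE 0.0227, adjusted p = 7.96e-16) and by 0.32 (SE 0.0279, adjusted p = 9.37e-10). Per kb, *Pdgfrb* was thus below *Pdgfra* in the 4 vehicle libraries (ratio 0.780 to 0.969) and above it in the 4 capmatinib libraries (2.39 to 2.53). The 6 fibroblast and pericyte markers did not all move one way. *Col1a1* went from 2411 and 2486 CPM to 15269 and 15523 in NF1-MET, and *Cspg4* from 293 and 291 to 403 and 415. *Dcn* went from 1.24 and 1.00 CPM to 0.723 and 0.547 in NF1-MET, where it was called lower, and from 1.63 and 1.59 to 1.33 and 1.27 in NF1-MET;sgP53, where it was not called. *Rgs5* was at 0.0582 to 0.260 CPM in the 8 libraries, and *Lum* had at most 1 count in any of them. Their part in the *Pdgfrb* result was not tested.

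*Csf1r*, the receptor for CSF1 and IL-34, rose by 1.88 (SE 0.437, adjusted p = 3.06e-04) in NF1-MET and by 1.14 (SE 0.406, adjusted p = 0.0168) in NF1-MET;sgP53, but from 7 to 17 counts per vehicle library to 26 to 30 with capmatinib, under 1 CPM throughout. In NF1-MET;sgP53 the call was lost without vehicle replicate 2 (0.66) or capmatinib replicate 2 (1.05), and *Hmgxb3* overlaps the gene by 873 bp on the opposite strand. Of the 7 blood cell markers, *Adgre1*, *Itgam* and *Tyrobp* were at 0 in every library. *Aif1* and *Lyz2* had 0 counts in the vehicle libraries and at most 7 with capmatinib, and *Ptprc* had at most 2 counts in vehicle and 2 to 7 with capmatinib. *Cd68* was called lower with capmatinib in both lines (-0.90 and -0.64), and the part of these markers in the *Csf1r* result was not tested.

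Insulin-class receptors drive PI3K/AKT signaling through IRS adaptors. *Igf1r* (chr7:67952827-68233668, plus strand) was at 236 CPM in both NF1-MET vehicle libraries, 358 and 364 when treated, and in NF1-MET;sgP53 at 228 and 224 with vehicle and 337 and 334 with the drug. It rose by 0.59 (SE 0.0235, adjusted p = 9.98e-21) and by 0.57 (SE 0.0297, adjusted p = 1.23e-13). *Insr* (chr8:3122061-3279617, minus strand) was at 83.9 and 83.0 CPM in NF1-MET vehicle, 63.3 and 67.9 under the inhibitor, whereas the NF1-MET;sgP53 libraries held 62.3 and 61.6 CPM with vehicle and 65.2 and 62.0 under the inhibitor. Only the NF1-MET vehicle libraries stood apart, above the other 6. *Insr* fell by 0.36 (SE 0.0357, adjusted p = 1.37e-10) in NF1-MET and was at 0.04 (SE 0.0364, adjusted p = 0.361) in NF1-MET;sgP53. The ratio of *Igf1r* to *Insr* per kb was 2.30 and 2.33 in NF1-MET vehicle and 4.63 and 4.39 with capmatinib, and it was 4.22 and 4.41 in treated NF1-MET;sgP53 cells, with the vehicle libraries of that line in between.

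*Flt1*, which encodes VEGFR1 and binds VEGF-A, VEGF-B and PlGF, was the tested VEGF receptor. *Flt1* (chr5:147561604-147726011, minus strand) was at 81.4 and 77.2 CPM in NF1-MET vehicle, 39.3 and 39.2 after capmatinib, then 47.5 and 45.6 in NF1-MET;sgP53 vehicle and 31.2 and 28.6 after capmatinib. The 4 groups did not overlap, and the highest was NF1-MET vehicle. It fell with capmatinib by 1.03 (SE 0.0399, adjusted p = 5.70e-21) and by 0.64 (SE 0.0493, adjusted p = 1.16e-10). The sum of 7 endothelial markers went from 2.63 to 2.92 CPM in NF1-MET vehicle to 1.25 to 1.45 with capmatinib, and from 2.41 to 2.44 to 1.48 to 1.49 CPM in NF1-MET;sgP53. Most of it was *Egfl7*, at 1.90 and 1.86 CPM in NF1-MET vehicle and 0.867 and 0.833 with capmatinib. *Egfl7* and *Esam* were called lower in both lines, while *Vwf* was called higher in NF1-MET (7 and 4 counts in vehicle, 11 and 14 with capmatinib) and not called in NF1-MET;sgP53. *Cdh5* had 4 to 9 counts in vehicle libraries and 0 or 1 with capmatinib, and *Pecam1* had 3 to 6 and 1 to 4, both too few to be tested. *Emcn* and *Cldn5* had 0. Their part in the *Flt1* result was not tested.

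FGF receptors signal through FRS2 to RAS and ERK. *Fgfr2* (chr7:130162451-133123350, minus strand) was at 24.3 and 26.3 CPM in NF1-MET vehicle, 42.8 and 47.6 when treated, and in NF1-MET;sgP53 at 48.0 and 49.7 with vehicle and 79.2 and 79.8 with the drug. Both the drug and the line moved it up, so that NF1-MET;sgP53 vehicle cells were just above NF1-MET cells with capmatinib. The capmatinib changes were 0.83 (SE 0.0544, adjusted p = 6.60e-15) and 0.70 (SE 0.0352, adjusted p = 6.51e-14). Its annotation shares 314 bp with *Ctbp2* on the same strand, and *Ctbp2* fell by 0.18 and by 0.22 with the drug and was not called between the lines. *Fgfr1*, the main FGF receptor of these cells at 200.2 to 208 CPM in all 8 libraries, differed by 0.03 (SE 0.0252, adjusted p = 0.326) and 0.02 (SE 0.0307, adjusted p = 0.503) with capmatinib. Relative to library totals instead of TMM, *Fgfr1* was at -0.16 in NF1-MET and called lower. *Fgfr3*, under 0.5 CPM, was not called.

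All 4 Wnt-binding receptors were called higher in NF1-MET and 3 of them also in NF1-MET;sgP53, against 35.5% and 34.2% of all genes. *Ror1*, a WNT5A receptor, rose by 0.90 and 0.77 from 17.0 to 19.9 CPM in vehicle libraries to 31.2 to 35.1 with capmatinib. *Ryk* rose by 0.61 and 0.59, and *Ror2* by 0.29 in NF1-MET, with 0.02 (SE 0.0633, adjusted p = 0.783) in NF1-MET;sgP53. *Ptk7* (chr17:46564471-46629504, minus strand), a pseudokinase of planar cell polarity, was at 30.0 and 29.8 CPM in NF1-MET vehicle, 48.5 and 45.4 under the inhibitor, whereas the NF1-MET;sgP53 libraries held 24.8 and 23.7 CPM with vehicle and 33.1 and 32.5 under the inhibitor. It rose by 0.63 (SE 0.0482, adjusted p = 2.84e-13) and 0.44 (SE 0.0532, adjusted p = 1.87e-07) and was lower in NF1-MET;sgP53 at both treatments. Collagen-binding *Ddr1* rose by 0.74 and 0.98 and *Ddr2* by 0.32 and 0.29, beside the rise of *Col1a1* given above. When scaled by library totals, the *Ddr2* change in NF1-MET;sgP53 was 0.17 and the *Ror2* change in NF1-MET 0.11, neither of them called.

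The second comparison, of NF1-MET;sgP53 with NF1-MET, asks which receptors differ between the lines. It uses the same libraries as the first, so the values are given side by side only. Between vehicle cells 5 receptors were called higher and 9 lower in NF1-MET;sgP53, against 10.9% and 12.3% of all genes. Between capmatinib cells 5 were called higher and 6 lower, against 5.94% and 6.34%. The libraries of the lines did not overlap for 18 of the 27 in either case, against 60.5% and 52.3% of all genes. No called change reached 2-fold, a size passed by 1.40% (higher) and 0.925% (lower) of all genes in vehicle and by 0.780% and 0.394% with capmatinib, and the medians of the 27 were -0.03 and -0.02. When libraries were scaled by their totals, the calls in vehicle were 4 higher against 3 lower, and with capmatinib 3 higher against 1 lower, and the median of all genes moved from 0.0024 to 0.06 and from -0.0010 to 0.11.

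*Fgfr2* and *Ephb2* were the receptors most increased in NF1-MET;sgP53. *Fgfr2* was higher by 0.93 (SE 0.0496, adjusted p = 2.21e-11) in vehicle and 0.81 (SE 0.0427, adjusted p = 6.07e-10) with capmatinib, and *Ephb2* by 0.90 (SE 0.0636, adjusted p = 1.32e-09) and 0.47 (SE 0.0414, adjusted p = 2.74e-07). *Ryk* was higher by 0.15 and 0.13 and *Pdgfra* by 0.08 and 0.14. The *Pdgfra* call in vehicle was lost without NF1-MET vehicle replicate 1 (0.09) or 2 (0.08). *Pdgfrb* was higher by 0.36 (SE 0.0281, adjusted p = 7.65e-09) in vehicle, and with capmatinib by 0.08 (SE 0.0252, adjusted p = 0.0522), a value at the threshold. It was called without NF1-MET;sgP53 capmatinib replicate 2 (0.08), and with DESeq2 size factors, without *Gm42418*, with bias-adjusted quasi-likelihood, with the stricter filter or with all libraries in 1 model (0.08 in each). *Epha7* was called higher with capmatinib (0.32), but not when any of the 4 libraries was left out (0.27 to 0.36).

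Receptors lower in NF1-MET;sgP53 at both treatments were *Flt1* (-0.79, SE 0.0374, adjusted p = 3.53e-12 in vehicle, and -0.39, SE 0.0505, adjusted p = 2.82e-05 with capmatinib), *Ptk7* (-0.32 and -0.51), *Epha2* (-0.20 and -0.18), *Ephb4* (-0.25 and -0.17) and *Igf1r* (-0.08 and -0.11). *Insr* was at -0.45 (SE 0.0314, adjusted p = 1.18e-09) in vehicle and at -0.05 (SE 0.0401, adjusted p = 0.523) with capmatinib. In vehicle *Tyro3* (-0.20), *Ddr1* (-0.17) and *Ephb6* (-0.27) were also called lower, and with capmatinib *Ror2* (-0.37, SE 0.0548, adjusted p = 1.18e-04). Of these, *Igf1r* was lost in vehicle without NF1-MET vehicle replicate 1 or 2 (both -0.08) or NF1-MET;sgP53 vehicle replicate 2 (-0.07), and with capmatinib without NF1-MET capmatinib replicate 2 (-0.10). That last library also decided *Ephb4* with capmatinib (-0.11 without it). *Ddr1* was lost without NF1-MET vehicle replicate 2 (-0.17) or NF1-MET;sgP53 vehicle replicate 2 (-0.14), and *Ephb6* without either NF1-MET vehicle library (-0.25 and -0.28) or NF1-MET;sgP53 vehicle replicate 2 (-0.15). *Axl*, *Mertk*, *Ephb3*, *Epha3*, *Epha4*, *Fgfr1* and *Ddr2* were not called at either treatment, with *Axl* at 0.04 (SE 0.0184, adjusted p = 0.0961) in vehicle and 0.04 (SE 0.0197, adjusted p = 0.192) with capmatinib, and *Mertk* at 0.0024 (SE 0.0334, adjusted p = 0.973) and 0.06 (SE 0.0530, adjusted p = 0.577). Without NF1-MET;sgP53 vehicle replicate 1, or with all libraries in 1 model, *Axl* in vehicle was 0.06 and called.

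**Figure D3:**
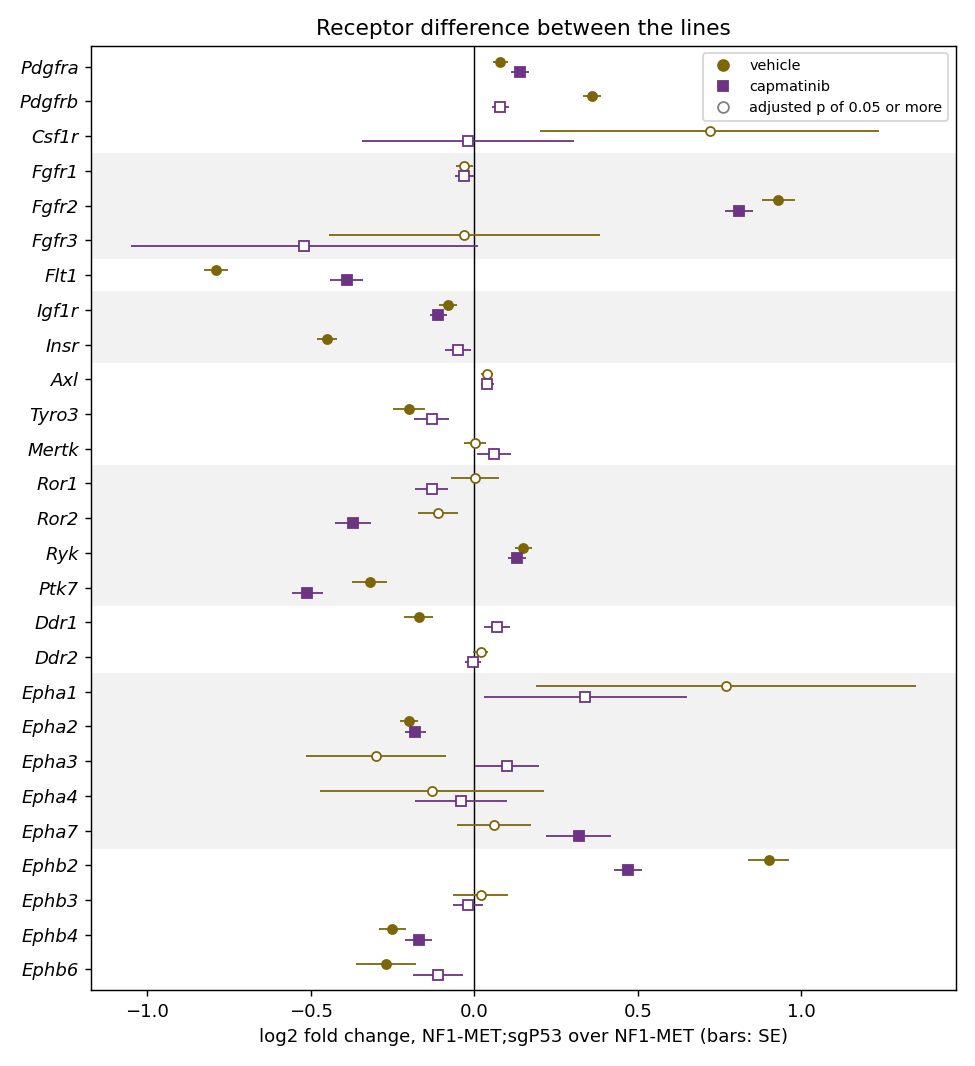
log2 fold change of NF1-MET;sgP53 over NF1-MET for the 27 tested receptors in vehicle and in capmatinib, with the SE as bars and open symbols where the adjusted p was 0.05 or more. *Fgfr2* lies at 0.93 and 0.81, *Ephb2* at 0.90 and 0.47, and *Flt1* at -0.79 and -0.39.

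Whether the response to capmatinib itself differed between the lines was tested as the interaction of line and drug over all 8 libraries. It was called positive for 3 receptors and negative for 3, against 3.85% and 5.86% of all genes, or 9.71% either way. The positive ones, whose response in NF1-MET;sgP53 was less negative or more positive, were *Insr* (0.38, SE 0.0510, adjusted p = 1.09e-05), *Flt1* (0.37, SE 0.0639, adjusted p = 2.47e-04) and *Ddr1* (0.22, SE 0.0589, adjusted p = 0.0155). The negative ones were *Ephb2* (-0.45, SE 0.0729, adjusted p = 1.33e-04), *Pdgfrb* (-0.30, SE 0.0371, adjusted p = 4.19e-06) and *Ror2* (-0.29, SE 0.0837, adjusted p = 0.0287). Scaled by library totals, *Insr* and *Flt1* stayed called, no receptor was called negative by edgeR at the adjusted threshold, and 2 were negative at an unadjusted p under 0.05. The DESeq2 Wald test called 2 positive and 2 negative. For *Axl*, *Mertk*, *Epha2*, *Ephb3* and *Igf1r*, the interaction was between -0.06 and 0.03 and not called.

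The ligands of these receptors were followed from a list of 61 genes found in the table, of which 36 were tested. Ligands called higher with capmatinib numbered 19 in NF1-MET cells, while NF1-MET;sgP53 cells had 21, and 8 were called lower in each, beside the same shares of all genes as above (35.5% and 34.2% higher, 34.7% and 33.4% lower). Among the ligands whose mean reached 1 CPM in some group, the largest change was in *Igf1*, the ligand of IGF1R, which was at 2.18 and 2.28 CPM in NF1-MET vehicle, 44.2 and 44.9 after capmatinib, then 1.48 and 1.66 in NF1-MET;sgP53 vehicle and 32.0 and 33.3 after capmatinib. *Igf1* rose by 4.30 (SE 0.0825, adjusted p = 2.39e-29) and 4.36 (SE 0.0950, adjusted p = 2.00e-20), next to the rise of *Igf1r* transcript.

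*Pdgfb*, the PDGF chain that binds PDGFRB most strongly, was at 6.86 and 6.37 CPM in NF1-MET vehicle, 39.6 and 39.3 when treated, and in NF1-MET;sgP53 at 2.97 and 3.02 with vehicle and 25.5 and 28.2 with the drug. It rose by 2.56 (SE 0.0682, adjusted p = 2.05e-25) and 3.17 (SE 0.0919, adjusted p = 3.68e-18), and stood at -1.16 in vehicle and -0.55 with capmatinib for NF1-MET;sgP53 over NF1-MET. *Pdgfrb* and *Pdgfb* thus both rose with the drug, while in vehicle NF1-MET;sgP53 cells had more of the receptor transcript and less of the ligand. *Fgf7*, a ligand of the epithelial FGFR2 isoform, rose from 106 to 112 CPM in vehicle libraries to 340.2 to 354 with capmatinib, by 1.66 and 1.64. The files count genes, so the isoform of *Fgfr2* was not resolved.

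Several ligands rose whose receptors were at or near 0. *Vegfc*, the ligand of VEGFR3 (*Flt4*), rose by 3.23 and 2.04, *Bdnf*, the ligand of TRKB (*Ntrk2*, 0 counts), by 1.41 and 1.02, and *Gdnf*, which acts on RET, by 1.51 and 1.29. *Gfra1*, the coreceptor through which GDNF engages RET, moved the other way, from 52.2 ± 0.575 CPM in NF1-MET vehicle to 2.57 ± 0.612 with capmatinib and from 27.1 ± 0.0650 to 2.28 ± 0.210 in NF1-MET;sgP53 (SD, n = 2). Its log2 fold changes were -4.40 (SE 0.0852, adjusted p = 3.13e-29) and -3.57 (SE 0.0939, adjusted p = 6.19e-19). *Nrp1*, the coreceptor for VEGF and semaphorins, rose by 1.39 and 0.75. Of the CSF1R ligands, *Csf1* rose by 1.32 and 0.61 and *Il34* fell by 1.25 and by 1.10. Of 10 listed coreceptors 6 were tested, and 4 were called higher in each line, with 1 and 2 called lower, against the same 35.5% and 34.2% (higher) and 34.7% and 33.4% (lower) of all genes.

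**Figure D4:**
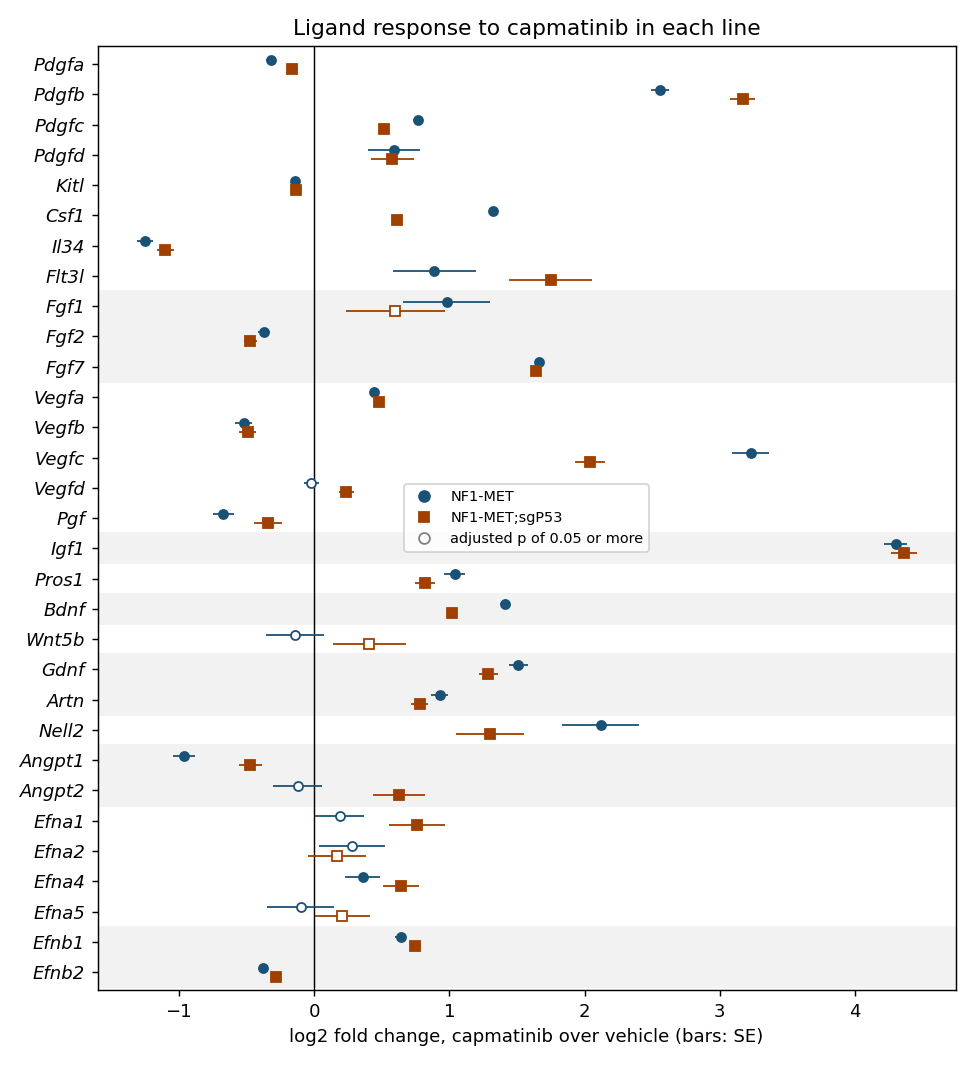
log2 fold change of capmatinib over vehicle for the 31 tested ligands whose mean reached 1 CPM in some group, with the SE as bars and open symbols where the adjusted p was 0.05 or more. *Igf1* is the highest at 4.30 and 4.36, *Vegfc* and *Pdgfb* follow, and *Il34* is the lowest at -1.25 and -1.10.

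All 17 listed adaptors and turnover genes were tested, and in each line 10 were called higher and 1 lower with capmatinib, against 35.5% and 34.2% of all genes called higher in the lines and 34.7% and 33.4% called lower. The largest of these changes was in *Gab1*, the docking protein that recruits PI3K and SHP2 to MET and other receptors, which rose by 1.14 (SE 0.0522, adjusted p = 5.66e-19) and 1.19 (SE 0.0491, adjusted p = 1.95e-15). *Met* itself was at 352 and 362 CPM in NF1-MET vehicle and 230.3 and 232 with capmatinib, and at 344 and 342 in NF1-MET;sgP53 vehicle and 249 and 246 with capmatinib. It fell by 0.64 and by 0.47, and *Egfr* rose by 0.28 and 0.52. Per kb, *Met* was below *Pdgfrb* in every capmatinib library (30.0 to 32.4 against group means of 81.6 and 86.1 CPM per kb) and above it in every vehicle library. As above, the *Met* counts may leave out transcript of the MET transgene.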

How the data were processed

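Gene counts of 8 poly(A) libraries (4 groups, 2 replicates each) were analysed. The deposited table holds raw counts per gene that the authors made with STAR 2.5.2b on mm10 after Trim Galore 0.4.2, per the submitters' processing notes and the methods; the strand setting is not given in the sources used here. Totals were 30116810 to 42781371 counts, and intervals and floors (3 counts) cover counting error only. No column was left unused. Some marker results are not reported here. Exon lengths and overlaps came from GENCODE M21, in which 99.56% of the 50600 genes were found.

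A gene was kept where 2 or more of the 8 libraries had 10 counts (14497 genes). Each comparison was fitted with TMM factors and the edgeR 4.0.16 quasi-likelihood test (R 4.3.3) on the groups compared. The interaction and the fit over both lines used all 8 libraries. The p-values were adjusted by Benjamini-Hochberg over every tested gene. A gene above 0 in fewer than 2 libraries of a fit dropped out of it. SEs are the fold change divided by the square root of F. The steps were run on simulated counts with a fixed spread between libraries, which was below the spread fitted in most comparisons. Replicates differed by more than sampling noise in every group.

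The members, gene lists and rules were chosen with earlier results of these data known. Members given in full had a mean of at least 1 CPM in some group and a called log2 change of at least 1 with capmatinib or of at least 0.5 for the line or the interaction, and list genes a called change of at least 1. *Axl*, *Pdgfra*, *Igf1r*, *Insr*, *Epha2* and other members outside the rule, and *Efnb1*, *Efnb2*, *Gas6*, *Zyx*, *Ctbp2*, *Hmgxb3* and the markers, were named after their values were seen. Alternatives were DESeq2 1.42.0 size factors and its Wald test, library totals, removal of *Gm42418*, bias-adjusted quasi-likelihood, other filters, a replicate block, all libraries in 1 model, and each library left out.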

Additional observations from a re-analysis of the deposited data

Results flagged for a closer look

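In 6 receptors the response to capmatinib differed between the lines by the interaction test in edgeR (adjusted p under 0.05 over all genes), which called 9.71% of all genes either way. The log2 difference of the responses, NF1-MET;sgP53 minus NF1-MET, was -0.45 for *Ephb2* and -0.30 for *Pdgfrb*, each with a smaller rise in NF1-MET;sgP53, and -0.29 for *Ror2*, which was called higher in NF1-MET and not called in NF1-MET;sgP53. It was 0.38 for *Insr*, which was called lower in NF1-MET and not called in NF1-MET;sgP53, 0.37 for *Flt1*, with a smaller decrease in NF1-MET;sgP53, and 0.22 for *Ddr1*, with a larger rise. In all 6, the lines also differed in vehicle or with capmatinib by the separate fits, which use the same libraries. The *Ror2* call was lost without NF1-MET vehicle replicate 2 (-0.25), NF1-MET capmatinib replicate 1 (-0.27) or 2 (-0.30), NF1-MET;sgP53 vehicle replicate 2 (-0.22) or NF1-MET;sgP53 capmatinib replicate 2 (-0.22). The *Ddr1* call was lost without NF1-MET vehicle replicate 2 (0.22), NF1-MET capmatinib replicate 2 (0.16) or NF1-MET;sgP53 vehicle replicate 2 (0.19). Without NF1-MET capmatinib replicate 2, *Ptk7* was also called, at -0.26.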

How the results depend on the processing

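Of 104 called values of the 27 tested receptors, 76 were called in the same direction under every alternative run, and 28 lost their call under at least 1. Library totals without TMM factors ended 25 calls, 2 of which also changed sign. This scaling moved the median of all genes to -0.18 and -0.12 for capmatinib in NF1-MET and NF1-MET;sgP53. The median of the tested receptors then was 0.22 and 0.43, with 0.32 over both lines, 0.03 and 0.10 for the line in vehicle and capmatinib, and 0.06 for the interaction. The count lower in NF1-MET;sgP53 went from 9 to 3 in vehicle (5 with the DESeq2 Wald test) and from 6 to 1 with capmatinib, where the count higher went from 5 to 3, and the count of negative interactions from 3 to 0, with 2 at an unadjusted p under 0.05. *Ephb4* in NF1-MET turned to -0.06, *Igf1r* between the lines with capmatinib to 0.01, and *Fgfr1*, not called before, to -0.16 in NF1-MET and -0.13 over both lines, both called. The interaction calls lost with library totals were *Ephb2* (-0.37), *Pdgfrb* (-0.22), *Ror2* (-0.21) and *Ddr1* (0.30). The DESeq2 Wald test ended 11 calls, no filter 4, bias-adjusted quasi-likelihood, removal of *Gm42418* and all libraries in 1 model 1 each, and DESeq2 size factors and the stricter filter 0. Beside *Fgfr1*, the calls gained with all libraries kept were *Pdgfrb* for the line with capmatinib (0.08 in each, adjusted p = 0.0302 to 0.0498) with DESeq2 size factors, removal of *Gm42418*, bias-adjusted quasi-likelihood, the stricter filter and all libraries in 1 model, *Axl* for the line in vehicle with all libraries in 1 model (0.06), and *Fgfr3* over both lines with library totals (-0.78). Without a filter the median was 0.60 in NF1-MET (34 receptors tested), 0.56 over both lines (36) and -0.04 for the line with capmatinib (32), where scarcer genes enter. Without *Gm42418* the median interaction was 0.01.

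With each library left out in turn, the capmatinib median ranged from 0.36 to 0.45 in NF1-MET and from 0.44 to 0.56 in NF1-MET;sgP53. Over both lines, *Insr* (-0.10 to -0.13) and *Ror2* (0.12 to 0.15) lost their calls without any of the 4 NF1-MET libraries. Replicate numbers did not pair the samples (correlations of deviations of -0.0536 to 0.102). With the replicate number as a block, 1 call was lost, *Insr* over both lines (-0.16), and no other. With 2 libraries a group, the spread rests on pooling across genes, and receptors under about 10 counts a library could not be compared.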
